A study of Mus musculus with 6 samples.

Results

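Trem2, Tyrobp, Apoe, Lpl, Cst7, Clec7a, Itgax, Spp1, Gpnmb and Cd9 are 10 genes of the disease-associated microglia programme that is built around the receptor TREM2 and the lipid carrier APOE. They were chosen by gene symbol in the annotation that accompanies the deposited expression values, and the set was put together with earlier results of these data known. All 10 were found among 25032 genes with at least 1 read, and all passed the filter on low counts that left 13199 genes for testing. Poly(A)-selected RNA was sequenced in 6 libraries of BV2, a microglial line of the mouse that was immortalised for culture. In 3 libraries the cells overexpressed TDP43-NLS, a TDP-43 whose nuclear localisation signal is mutated according to the series' design text, and in the other 3 they overexpressed GFP as the control protein. TDP-43 binds RNA and normally sits mostly in the nucleus. The labels give neither the way the constructs were delivered nor whether libraries came from separate cultures, so p-values measure only the spread between these libraries, which may be technical.

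TREM2 is a surface receptor of microglia that binds lipids and lipoproteins, APOE among them, and signals through the adaptor TYROBP, which recruits the kinase SYK. In mouse models of neurodegeneration, microglia that engage this receptor lose resting-state genes and take up a programme of phagocytic, lysosomal and lipid-handling genes, to which Apoe, Lpl, Cst7, Clec7a, Itgax, Spp1, Gpnmb and Cd9 belong.

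The libraries held 15062131 to 18005592 counted reads. GFP replicate 2 stood apart from the other GFP libraries: the chi-square of its counts against theirs, divided by the degrees of freedom, was 7.18 and 7.24, against 1.20 between GFP replicates 1 and 3 and 1.86 to 2.71 within the TDP43-NLS group. All 8 macrophage markers had reads, with a summed level of 1061 to 1077 FPKM in the TDP43-NLS libraries and 1123 to 1151 FPKM in the GFP libraries. Of these 8, Adgre1, Aif1 and Itgam rose (2.86-fold, 2.85-fold and 2.46-fold), 4 fell, among them the abundant Cd68, and Ptprc was not called. FPKM are reads scaled by gene length and by the total of the library, and CPM are reads scaled by the total alone, after TMM normalisation. Of 6 markers of brain-resident microglia, Sall1 had no read, Siglech had 0 reads in all TDP43-NLS libraries and 5 in all GFP libraries, and P2ry12 had 13 and 64. The summed level of those 6 markers was 57.0 to 63.4 FPKM in the TDP43-NLS libraries and 93.7 to 115 FPKM in the GFP libraries, so the label of microglia rests here on macrophage markers more than on those of the resident cell. The neuronal markers Rbfox3, Snap25 and Syt1, the astrocyte marker Aqp4 and the oligodendrocyte markers Mog and Mobp had no read in any library. Of 6 osteoclast markers, the protease gene Ctsk was abundant (854 and 1037 FPKM in the TDP43-NLS and GFP groups), while Calcr had no read and Acp5 had 5 and 7 reads in all. The remaining markers of that list, Ocstamp, Dcstamp and Mmp9, rose at levels far below that of Ctsk. Tardbp, the mouse gene for TDP-43, stood at 377 ± 9.62 CPM in the TDP43-NLS group and 451 ± 24.0 CPM in the GFP group (SD, n = 3 each). Its log2 fold change was -0.26 with a standard error of 0.05 (edgeR adjusted p = 0.000291). Counts of the mouse gene were thus lower in the libraries labelled TDP43-NLS, and they cannot check the label of an overexpression. The species of the construct is not in the labels and its RNA was not measured apart, so every direction below is that of the libraries labelled TDP43-NLS relative to those labelled GFP. In bulk RNA a lower value can come from fewer cells that express a gene or from less RNA per cell, and these cannot be told apart.

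Stretches of 150 bases around the gene starts of Trem2, Cst7, Gpnmb, Itgax and Spp1 are shown because they hold the motif matches found in the promoter windows of the 10 genes, other than one in Cd9. They are RefSeq sequences of build GRCm38.p6, on the plus strand, from 120 bases before to 30 bases after the start. The windows of 8 of the 10 genes were found; Tyrobp and Lpl are not among them. In 300-base windows, the letters TGANTCA (the AP-1 site, the same on both strands) occurred in 4 of the 12 windows of the 8 genes, 1 each for Trem2, Cst7, Gpnmb and Itgax, and in 7.81% of all 32851 windows of that length. The letters GAGGAAGT (a core of sites for the myeloid factor PU.1) occurred, on either strand, in 1 of the 12 windows, the first of Spp1, and in 3.20% of all windows. The E-box letters CATGTG occurred, on the minus strand of the gene, in 1 of the 12 windows, that of Cd9, and in 14.2% of all windows, and CACGTG in none of the 12 against 7.15% of all windows. The motifs do not overlap each other, and the capitals below mark the matches.
Trem2, chr17:48346281-48346430: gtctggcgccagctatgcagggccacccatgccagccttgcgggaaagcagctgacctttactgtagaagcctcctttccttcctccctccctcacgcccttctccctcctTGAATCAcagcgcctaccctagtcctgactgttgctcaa
Cst7, chr2:150570295-150570444: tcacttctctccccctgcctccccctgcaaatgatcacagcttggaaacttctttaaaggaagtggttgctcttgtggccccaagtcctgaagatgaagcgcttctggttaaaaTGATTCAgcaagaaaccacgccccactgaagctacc
Gpnmb, chr6:49036398-49036547: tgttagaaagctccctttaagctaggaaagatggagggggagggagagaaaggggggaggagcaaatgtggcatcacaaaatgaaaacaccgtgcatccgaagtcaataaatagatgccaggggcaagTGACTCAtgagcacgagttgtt
Itgax, chr7:128129430-128129579: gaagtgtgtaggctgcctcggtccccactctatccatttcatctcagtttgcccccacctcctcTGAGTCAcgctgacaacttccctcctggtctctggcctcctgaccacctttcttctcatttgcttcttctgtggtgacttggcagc
Spp1, chr5:104434991-104435140: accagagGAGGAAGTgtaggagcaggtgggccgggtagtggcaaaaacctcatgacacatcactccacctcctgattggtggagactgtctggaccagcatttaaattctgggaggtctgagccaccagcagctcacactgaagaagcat
The AP-1 letters began 9 bases before the start of Trem2, 6 bases before that of Cst7, 56 bases before that of Itgax and at base 9 of the Gpnmb transcript. Of the genes with that match, Trem2, Cst7 and Gpnmb fell and Itgax was not called, while Apoe, Clec7a and Cd9, which also fell, and Spp1, which rose, had none in their windows.

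The 10 genes did not move together: 9 of them were called in either direction, against 57.5% of all tested genes. Spp1 alone rose in the libraries labelled TDP43-NLS, against 29.3% of all tested genes that rose. A decrease was called for 8 of the 10 genes, namely Trem2, Tyrobp, Apoe, Lpl, Cst7, Clec7a, Gpnmb and Cd9, against 28.2% of all tested genes. Itgax was not called. A call means an adjusted p under 0.05 in edgeR's quasi-likelihood test over all 13199 genes. The groups did not overlap for 9 of the 10 genes, all but Itgax, against 63.2% of all tested genes. For the 10 genes the median log2 fold change came to -0.30, and over all tested genes it came to 0.00272. The changes covered a wide range of size, with 3 of the 10 genes (Spp1, Cst7 and Clec7a) called with a change of at least 1 on the log2 scale, beside 9.99% of all tested genes, and 4 (Trem2, Tyrobp, Gpnmb and Cd9) called with a change under 0.5, beside 33.3%. Without GFP replicate 2 the same calls were made, with 8 genes lower, beside 30% of all tested genes, and Spp1 higher, beside 31.3%. DESeq2 gave the same count, with 8 genes lower, beside 18.6% of all genes it tested, and Spp1 higher, beside 19.1%.

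**Figure D1:**
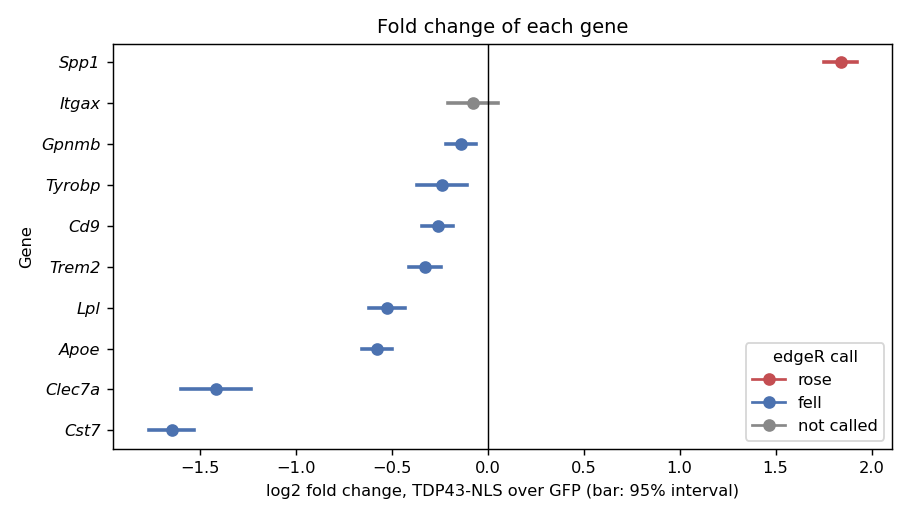
Log2 fold change (TDP43-NLS over GFP, horizontal axis) of each of the 10 genes, with bars for the 95% interval of the fit over 3 libraries per group and colours for the edgeR call. Spp1 lies at 1.84, Itgax has an interval that includes 0, and the other 8 genes lie below 0, down to -1.65 for Cst7.

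The levels of the 10 genes, compared per length in FPKM, stood in a different order in the 2 groups. In the TDP43-NLS libraries the order from the top was Spp1, Gpnmb, Apoe, Tyrobp, Lpl, Cd9, Trem2, Cst7, Itgax and Clec7a, with means from 2664 to 4.58 FPKM. In the GFP libraries it was Gpnmb, Spp1, Apoe, Tyrobp, Lpl, Cd9, Cst7, Trem2, Clec7a and Itgax, with means from 1041 to 11.8 FPKM. Thus 3 neighbouring pairs stood in the opposite order: Spp1 and Gpnmb, Trem2 and Cst7, and Itgax and Clec7a. This depends on the scaling by gene length. By reads, Gpnmb led Spp1 in both groups (303455 against 222216 under TDP43-NLS, 335151 against 62183 under GFP). Trem2 likewise led Cst7 (9420 against 985, 11829 against 3086), and Itgax led Clec7a (2647 against 617, 2795 against 1644). Neighbours in the FPKM order did not overlap between libraries of a group, except Clec7a and Itgax in the GFP libraries. Spp1 ranked 4 and Gpnmb 21 by mean FPKM among all genes with a read in the TDP43-NLS group, and 29 and 15 in the GFP group.

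**Figure D2:**
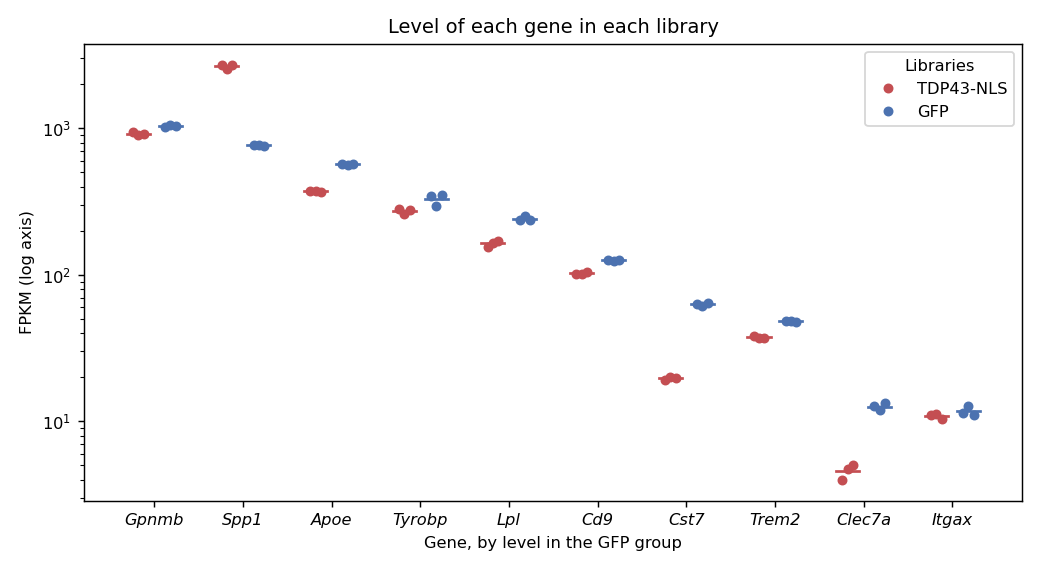
FPKM of each gene (log axis) in each of the 6 libraries, with TDP43-NLS libraries as red points left of the GFP libraries in blue, and a line at the mean of 3. The red points lie above the blue ones for Spp1 alone, the 2 groups overlap for Itgax, and in the other 8 genes the red points lie lower.

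Both chains of the TREM2 receptor were lower. Trem2 (ENSMUSG00000023992; GRCm39 chr17:48653429-48661175, plus strand) had 38.2, 37.3 and 37.3 FPKM in the TDP43-NLS libraries and 48.7, 48.6 and 48.0 FPKM in the GFP libraries. The libraries of each group were close together (coefficients of variation of the CPM of 1.61% in the TDP43-NLS group and 0.766% in the GFP group), and the groups did not overlap. The log2 fold change was -0.33 ± 0.04 (standard error, adjusted p = 7.50e-06), so that Trem2 fell by 20.3%. Tyrobp (ENSMUSG00000030579; chr7:30113185-30117010, plus strand), the adaptor that carries the signalling motif for TREM2 and other receptors, had 281, 259 and 276 FPKM in the TDP43-NLS libraries and 343, 297 and 349 FPKM in the GFP libraries. GFP replicate 2 was the lowest GFP library and still lay above all TDP43-NLS libraries. The log2 fold change of Tyrobp was -0.24 ± 0.06 (adjusted p = 0.00395). It was -0.31 without GFP replicate 2.

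A difference between the falls of Trem2 and Tyrobp was not detected. The ratio of Trem2 to Tyrobp FPKM was 0.136, 0.144 and 0.135 in the TDP43-NLS libraries and 0.142, 0.164 and 0.137 in the GFP libraries. These values overlap, and the log2 ratio differed by -0.09 (exact two-sided permutation p = 0.4, n = 3 each, where the smallest p this design allows is 0.1). Without GFP replicate 2 the difference was -0.02. Tyrobp was the more abundant chain in every library on the FPKM scale.

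Of the 2 other surface receptor genes, Clec7a was much lower and Itgax was not called. Clec7a (ENSMUSG00000079293; chr6:129438554-129449742, minus strand) encodes dectin-1, a receptor for fungal beta-glucans that also signals through SYK. Its read counts were 158, 226 and 233 under TDP43-NLS and 515, 522 and 607 under GFP, which is 3.98, 4.76 and 5.02 FPKM against 12.7, 11.9 and 13.2 FPKM. The highest TDP43-NLS library lay far below the lowest GFP library, although the spread was the widest of the 10 genes in the TDP43-NLS group (coefficient of variation of the CPM of 11.7%). The log2 fold change was -1.42 ± 0.08 (adjusted p = 1.31e-08). Itgax (ENSMUSG00000030789; chr7:127728719-127749829, plus strand), the integrin chain CD11c, had 11.0, 11.3 and 10.4 FPKM in the TDP43-NLS libraries and 11.5, 12.7 and 11.1 FPKM in the GFP libraries. The groups overlapped, and the highest value came from GFP replicate 2. Its log2 fold change was -0.08, with a 95% interval of -0.21 to 0.05 (adjusted p = 0.279). Itgax is also a marker of dendritic cells. The 6 other markers of that type summed to 0.124 to 0.216 FPKM in the TDP43-NLS libraries and 0.425 to 0.482 FPKM in the GFP libraries. Only Zbtb46 had enough reads to test, and it fell (29 reads in all TDP43-NLS libraries, 149 in all GFP libraries). Xcr1 had 20 and 16 reads, Flt3 6 and 1, Clec9a 1 and 4, and Cd209a and Ccr7 had 0.

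The genes for the lipid carrier and the lipase were both lower, each by about the same share. Apoe (ENSMUSG00000002985; chr7:19430034-19433113, minus strand), the apolipoprotein that microglia secrete and that TREM2 binds, had 374, 373 and 369 FPKM in the TDP43-NLS libraries and 572, 562 and 573 FPKM in the GFP libraries. Each group was tight and the groups were separate. Apoe fell by 32.9% (log2 fold change -0.58 ± 0.04, adjusted p = 2.10e-08). Lpl (ENSMUSG00000015568; chr8:69333143-69360100, plus strand), the secreted enzyme that releases fatty acids from lipoprotein triglycerides, had 155, 165 and 171 FPKM in the TDP43-NLS libraries and 236, 252 and 237 FPKM in the GFP libraries. All TDP43-NLS libraries lay well below the GFP libraries. Lpl fell by 30.5% (log2 fold change -0.53 ± 0.04, adjusted p = 3.68e-07). The 95% intervals of the 2 log2 fold changes, -0.65 to -0.50 for Apoe and -0.62 to -0.43 for Lpl, overlapped. Against a log2 fold change of 0.5 as the null, the Apoe call held only narrowly (adjusted p = 0.0467) and the Lpl call was lost (adjusted p = 0.52).

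Cst7 had the largest decrease of the 10 genes. Cst7 (ENSMUSG00000068129; chr2:150412335-150420864, plus strand) encodes cystatin F, an inhibitor of cysteine cathepsins in the endosomes and lysosomes of immune cells. Its read counts were 286, 356 and 343 under TDP43-NLS and 965, 1013 and 1108 under GFP, or 19.3, 20.1 and 19.8 FPKM against 63.7, 61.6 and 64.7 FPKM. Every TDP43-NLS library lay far below every GFP library. Cst7 fell by 68.1% (log2 fold change -1.65 ± 0.06, adjusted p = 4.70e-11). Its 95% interval, -1.77 to -1.53, overlapped that of Clec7a, -1.60 to -1.23.

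The membrane glycoprotein and tetraspanin genes were slightly lower. Gpnmb (ENSMUSG00000029816; chr6:49013480-49047863, plus strand), a transmembrane glycoprotein of the endosomal and lysosomal system, had 943, 907 and 912 FPKM in the TDP43-NLS libraries and 1026, 1061 and 1037 FPKM in the GFP libraries. The groups did not overlap, but the change was the smallest that was called among the 10 genes, a log2 fold change of -0.14 ± 0.04 (adjusted p = 0.00432). Cd9 (ENSMUSG00000030342; chr6:125437229-125471754, minus strand), a tetraspanin that organises membrane proteins and is a marker of extracellular vesicles, had 101, 102 and 104 FPKM in the TDP43-NLS libraries and 126, 125 and 127 FPKM in the GFP libraries. Replicates were nearly equal and the groups were apart, with a log2 fold change of -0.26 ± 0.04 (adjusted p = 5.28e-05). Trem2, Tyrobp, Gpnmb and Cd9, like Lpl, were not called against a log2 fold change of 0.5, which leaves Apoe, Cst7 and Clec7a as the 3 genes lower by that test, where 5.64% of all tested genes were lower. Spp1 was the 1 gene higher by that test, where 9.25% of all tested genes were higher.

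Spp1 rose to more than 3 times its level in the control libraries. Spp1 (ENSMUSG00000029304; chr5:104582984-104588916, plus strand) encodes osteopontin, a secreted ligand of integrins and CD44. It had 2717, 2560 and 2715 FPKM in the TDP43-NLS libraries and 771, 770 and 752 FPKM in the GFP libraries. Every TDP43-NLS library lay far above every GFP library. The fold was 3.58 (log2 fold change 1.84 ± 0.04, adjusted p = 9.17e-13), and by the size of its fold change Spp1 ranked 511 of 13199 tested genes. Spp1 took 0.439% ± 0.0148 of all counted reads in the TDP43-NLS group and 0.126% ± 0.00178 in the GFP group (SD, n = 3 each). Osteoclasts express Spp1 too. Of 6 osteoclast markers 3 rose, namely Ocstamp (2.16-fold), Dcstamp (1.94-fold) and Mmp9 (5.37-fold). Ctsk fell, Acp5 was too low to test and Calcr was at 0. The sum of the 6 was 845 to 883 FPKM in the TDP43-NLS libraries and 979.8 to 1090 FPKM in the GFP libraries. Nearly all of that sum was Ctsk (means of 854 and 1037 FPKM), so it does not show the direction of the others. The part of these markers in the result was not tested.

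Because Spp1 rose while the others fell or were not called, the make-up of the set changed. The summed level of the 10 genes was 4568 ± 111 FPKM in the TDP43-NLS group and 3208 ± 4.80 FPKM in the GFP group (SD, n = 3 each). Without Spp1 the sum was 1903 ± 23.9 FPKM and 2443 ± 14.2 FPKM, the opposite order. Spp1 made up 58.3% ± 0.579 of the sum in the TDP43-NLS group and 23.8% ± 0.359 in the GFP group, and Gpnmb 20.2% ± 0.365 and 32.5% ± 0.616. The ratio of Spp1 to Apoe was 6.87 to 7.36 in the TDP43-NLS libraries and 1.31 to 1.37 in the GFP libraries. A sum over the set thus takes its direction from Spp1.

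**Figure D3:**
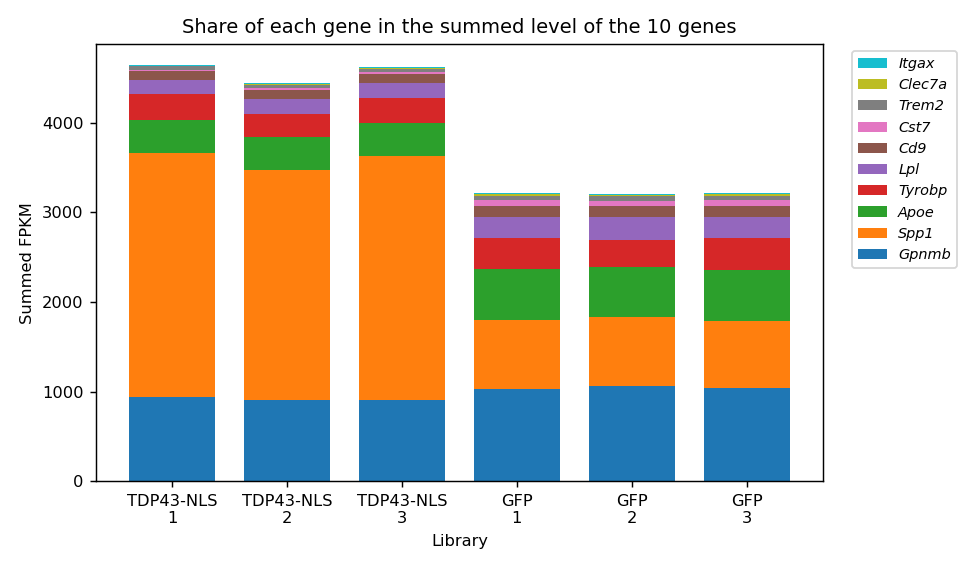
Stacked FPKM of the 10 genes in each library, from 0, with the 3 TDP43-NLS libraries left of the 3 GFP libraries. The stack is higher in the TDP43-NLS libraries (4568 against 3208 FPKM on average) because of the Spp1 segment, while the Apoe, Tyrobp, Lpl and Gpnmb segments are smaller there.

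The other genes of the pathway were read from 6 lists, with 9 genes that stand in more than 1 of them, and no list was tested as a set. Of 22 tested genes of TREM2 signalling and cleavage, 8 rose, 7 fell and 7 were not called, and the median log2 fold change was 0.04 (all tested genes 0.00272). These shares, 36.4% risen and 31.8% fallen, were near those of all tested genes, 29.3% and 28.2%. The kinase Syk, which TYROBP recruits, had 171 ± 6.29 CPM in the TDP43-NLS group and 172 ± 5.16 CPM in the GFP group and was not called (adjusted p = 0.878). Its downstream phospholipase Plcg2 was at 438 ± 10.9 CPM under TDP43-NLS and 403 ± 27.8 CPM under GFP, with an adjusted p of 0.0597. Hcst, the adaptor DAP10, was at 3.87 ± 0.511 CPM under TDP43-NLS and 3.74 ± 0.759 CPM under GFP, with an adjusted p of 0.818. Inpp5d, the phosphatase SHIP1 that restrains this pathway, fell by 0.49 on the log2 scale, the B-cell linker Blnk by 0.49 and the phosphoinositide kinase subunit Pik3r1 by 0.54. Vav1, a guanine exchange factor, rose by 0.87 and had the largest change of the list. Adam10 and Adam17, proteases that shed TREM2, changed in opposite directions, by -0.46 and 0.24. None of the decreases in this list held against a log2 fold change of 0.5.

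Of 22 tested lipoprotein and lipid handling genes, 9 fell, 6 rose and 7 were not called, and their median log2 fold change was -0.06. The share that fell was 40.9%, beside 28.2% of all tested genes, and the share that rose was 27.3%, beside 29.3%. The cholesterol exporters Abca1 and Abcg1 fell by 0.60 and 0.39 on the log2 scale, and the lysosomal acid lipase Lipa by 0.73. Nr1h3, the sterol-sensing receptor LXR-alpha, had 15.4 ± 1.06 CPM in the TDP43-NLS group and 17.7 ± 1.45 CPM in the GFP group and was not called (log2 fold change -0.20, adjusted p = 0.0598). The fatty acid and scavenger receptor Cd36 rose to 44.6 ± 1.74 CPM in the TDP43-NLS group, against 6.25 ± 0.958 CPM in the GFP group (log2 fold change 2.83), and the nuclear receptor Ppard rose by 0.69. Apoc1, Apoc2 and Apoc4, which lie beside Apoe, had 11, 1 and 0 reads in all TDP43-NLS libraries and 3 reads each in all GFP libraries, and were too low to test.

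Of 31 further disease-associated microglia genes tested, 16 rose, 9 fell and 6 were not called, and the median log2 fold change was 0.20. The share that rose was 51.6%, beside 29.3% of all tested genes, and the share that fell was 29.0%, beside 28.2%. Whether the lists differ was not tested. The surface glycoprotein gene Cd52 had 132 ± 6.58 CPM in the TDP43-NLS group and 15.6 ± 0.661 CPM in the GFP group. The chemokines Ccl4 and Ccl3 rose by log2 fold changes of 2.46 and 1.78. Cd83, a membrane glycoprotein of activated antigen-presenting cells, fell by 0.87. The largest change of the list was in Axl, a receptor kinase for the uptake of dead cells, which was low in both groups (5 reads in all TDP43-NLS libraries and 92 in all GFP libraries) and fell by 4.10 ± 0.50 on the log2 scale. Homeostatic microglia genes, which fall when this programme is taken up in mouse brain, had 11 lower, 6 higher and 3 not called of 20 tested (median -0.20), which is 55% lower beside 28.2% of all tested genes and 30% higher beside 29.3%. Mertk, which helps phagocytes to engulf apoptotic cells, had 3.50 ± 0.317 CPM in the TDP43-NLS group and 27.7 ± 1.30 CPM in the GFP group. Itgb5 and P2ry13, an integrin chain and a nucleotide receptor, fell by 1.01 and 0.85 on the log2 scale, and the integrin chain Itgam rose by 1.30.

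Of 18 tested direct partners of the 10 proteins, 10 rose, 5 fell and 3 were not called, and the median of their log2 fold changes was 0.29. The share that rose was 55.6%, beside 29.3% of all tested genes, and the share that fell was 27.8%, beside 28.2%. Among the receptors of SPP1, Cd44 had 379 ± 6.47 CPM in the TDP43-NLS group and 261 ± 8.39 CPM in the GFP group (log2 fold change 0.53). Itgb3 was at 10.4 ± 0.231 CPM under TDP43-NLS and 1.40 ± 0.489 CPM under GFP, which is a log2 fold change of 2.90. Itgav, the chain that pairs with ITGB3, fell by 0.52 on the log2 scale. Itgb2, the beta chain that pairs with ITGAX, rose by 0.50 while Itgax itself was not called. Of the cathepsins that cystatin F can inhibit, Ctsl rose by 0.52, Ctsc was not called (log2 fold change -0.04, adjusted p = 0.362), and Ctsh fell by 2.88 on the log2 scale (298 reads in all TDP43-NLS libraries, 2195 in all GFP libraries). Ptgfrn, which binds CD9, had 11 reads in all TDP43-NLS libraries and 274 in all GFP libraries, and fell by 4.59 ± 0.30 on the log2 scale. The metalloprotease Mmp9 rose by 2.43.

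Of 21 tested transcription factors reported upstream of the programme, 11 fell, 5 rose and 5 were not called, and the log2 fold changes had a median of -0.21. The share that fell was 52.4%, beside 28.2% of all tested genes, and the share that rose was 23.8%, beside 29.3%. In the family that controls lysosomal genes and, in melanocytes and macrophages, Gpnmb, Tfeb had 25.7 ± 0.605 CPM in the TDP43-NLS group and 55.8 ± 5.92 CPM in the GFP group (log2 fold change -1.12), while Mitf was not called (log2 fold change -0.05, adjusted p = 0.518). Tfec, the macrophage member, had 53 reads in all TDP43-NLS libraries and 26 in all GFP libraries and rose by 1.02. The myeloid factor Cebpa fell by 1.17 and Bhlhe40 by 0.40 on the log2 scale, and Cebpb rose by 0.62. Of all 21 tested genes of this list, named here or not, 3 decreases and 1 increase held against a log2 fold change of 0.5. The decrease of Bhlhe40, 0.40, is smaller than that size.

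**Figure D4:**
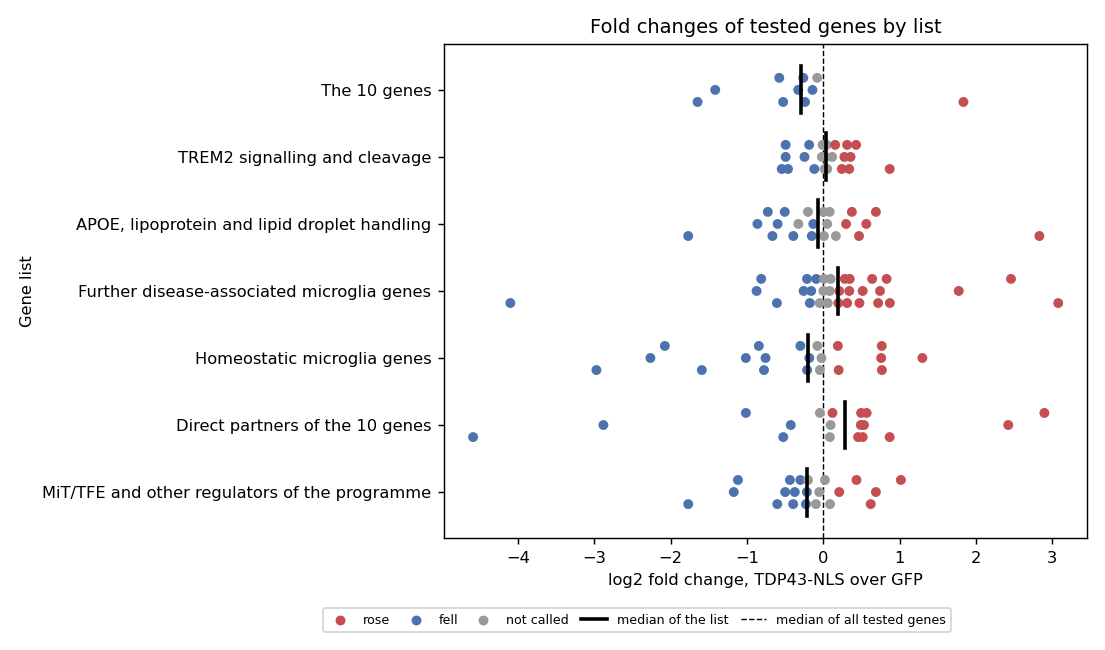
Log2 fold changes (TDP43-NLS over GFP) of the tested genes of each list, 1 point per gene, coloured by the edgeR call; thick lines are list medians and the dashed line is the median of all tested genes. The 10 genes have a median of -0.30 with Spp1 alone far to the right, and the 6 lists of partners spread to both sides, with medians from -0.21 to 0.29.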

How the data were processed

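The authors deposited raw read counts for each gene as whole numbers. Their deposited FPKM table holds those reads scaled by library total and a length per gene, with symbols and GRCm39 positions. The tools named are Bowtie2 2.2.3, HTSeq 0.6.0 and HISAT2 2.1.0, per the submitters' processing notes; their roles, and the treatment of strand and of reads shared by several genes, are not given in the sources used here. Lengths computed from counts and FPKM were the same in every library (relative spread of at most 6.28e-14), so FPKM is no second measurement. Counts were fitted with edgeR 4.0.16 in R 4.3.3 (filterByExpr at 10 reads and 15 in total, TMM, quasi-likelihood test, two-sided, group as the only term) with Benjamini-Hochberg adjustment over all 13199 tested genes. The fit was tested on simulated data. CPM are TMM-scaled, and a standard error is the log2 fold change divided by the square root of F. Alternatives were other scalings, no filter, DESeq2 1.42.0, limma 3.58.1 on log2(FPKM + 1) or log2(FPKM + 0.1) at a mean FPKM of at least 0.5, edgeR's glmTreat against a log2 fold change of 0.5, the replicate number as a block, and each library left out.

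The 10 genes and all lists were chosen with earlier results of these data known. Named partners are the 4 called genes of each list with the largest fold change at a mean of at least 1 CPM, plus 15 fixed genes; 1 gene that this rule names is not reported here. Other named genes (Adam10, Adam17, Apoc1, Apoc2, Apoc4, Axl) and the marker genes named singly were chosen after their values were seen. Reads of genes that overlap a member on the map cannot be told apart without strand.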

Additional observations from a re-analysis of the deposited data

How the results depend on the processing

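Under 9 alternatives that keep every library and 6 that leave out 1, the directions of the 10 genes did not change, and Itgax was never called (log2 fold change from -0.12 to -0.02 over all of them, adjusted p from 0.12 upward). Calls of the 10 genes and of Tardbp changed only against a log2 fold change of 0.5, where the test asks for larger changes by construction. There Trem2 (log2 fold change -0.33), Tyrobp (-0.24), Lpl (-0.53), Gpnmb (-0.14), Cd9 (-0.26) and Tardbp (-0.26) were no longer called, and 3 of the 10 genes were lower. In the same test the risen and fallen genes numbered 1 and 0 in the TREM2 signalling list, 2 and 4 in the lipid list, 8 and 4 in the further disease-associated list, 3 and 8 in the homeostatic list, 3 and 3 among direct partners, and 1 and 3 among regulators, beside 9.25% and 5.64% of all tested genes. Under the other alternatives each list's counts stayed within 1.5 times; homeostatic genes that fell numbered 8 under both limma settings, against 11. DESeq2 called 8 of the 10 genes lower, beside 18.6% of all genes, and Spp1 higher, beside 19.1%. No scaling moved the median of all genes by more than 0.04 on the log2 scale. Without 1 library the Tyrobp fold change ran from -0.31 to -0.20 (adjusted p up to 0.0425) and that of Gpnmb from -0.15 to -0.12 (adjusted p up to 0.0414).

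The replicate numbers did not pair the libraries: deviations of same-numbered libraries correlated at -0.0160, -0.0112 and 0.00189 across genes. With the number as a replicate block, 7528 genes were called instead of 7589, again 8 of the 10 lower and 1 higher. With 3 libraries a group and 617 reads of Clec7a in all TDP43-NLS libraries, that gene has the widest interval of the 10.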

Other observations

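Genes beside the 10 on the GRCm39 map gave values of their own. Hcst, which lies 127 bases beyond Tyrobp on the opposite strand, was not called, whereas Tyrobp fell. Tomm40, 2125 bases from Apoe on the same strand, fell by 0.10 on the log2 scale (edgeR adjusted p = 0.0387), against -0.58 for Apoe. Treml1, a receptor gene 5769 bases after Trem2, had 89 reads in all TDP43-NLS libraries and 165 in all GFP libraries (log2 fold change -0.89 ± 0.24, adjusted p = 0.0064), and B430306N03Rik on the other side of Trem2 had 1985 and 640 reads (log2 fold change 1.64). Gm42793 lies inside the Spp1 span on the same strand and had 88 and 18 reads, a log2 fold change of 2.26 beside 1.84 for Spp1; reads of the 2 genes cannot be told apart. Gm19253, 701 bases after Gpnmb on the same strand, had 237 and 327 reads (log2 fold change -0.47 ± 0.13). Gm28809 and Gm26728 overlap Cd9 on the opposite strand with 49 and 2 reads in the TDP43-NLS libraries and 26 and 6 in the GFP libraries, under 1% of the Cd9 reads. The chromosomes of the 10 genes had median log2 fold changes between -0.04 (chromosome 2) and 0.08 (chromosome 17).

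The genes whose log2 CPM over the 6 libraries was most like that of Trem2 were Cd83, Mrpl4 and Sac3d1 (Pearson r of 0.9996, 0.9994 and 0.9993), and those most like Apoe were Lipa, Mbd3 and D6Wsu163e (0.9999, 0.9998 and 0.9995). With 2 groups this measure mostly follows the difference between them: 1652 of 12086 genes correlated with Trem2 at r over 0.95.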
